A study of Mus musculus with 38 samples.

Results

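Otx2, Pou3f1 (Oct6), Zic2, Zic5, Sox3, Sox4 and Sox11 encode transcription factors that are associated with the primed epiblast, and their transcripts were followed through 38 RNA-seq libraries of mouse pluripotent cells. The 7 genes were chosen by name, their Ensembl identifiers were matched to the gene tables, and all 7 of 7 were found among the 29267 genes of each table. Naive cells were embryonic stem cells (ESC, n = 5, of which replicates 1 and 2 are labelled CBA/CaJ X C57BL/6J and the other 3 carry no strain label), and primed cells were epiblast stem cells (EpiSC, n = 4). EpiSC of a stable line that overexpresses Klf4 from a CAG promoter and carries an Oct4-GFP reporter (kEpiSC, n = 2) were put through the primed to naive transition (PNT) in iCD1 medium and sampled on days 1, 2 and 3 (n = 2 a day). A parallel course received the c-Jun N-terminal kinase inhibitor SP600125 (JNKi, n = 2, 3 and 2 on days 1, 2 and 3), and the course ended in induced pluripotent cells (kiPSC, n = 2). The labels give no JNKi concentration for these libraries. The remaining 12 libraries came from wild type (WT) and c-Jun knockout (JunKO) cells, the latter made by a CRISPR deletion of the coding sequence. These were EpiSC-like cells made from ESC (iEpiSC, n = 1 per genotype), EpiSC-like cells of the Klf4 line (kiEpiSC, n = 1 per genotype), and kiEpiSC on day 3 of the transition, in iCD1 alone or with JNKi added (n = 2 for each genotype in each condition). Strain, age and sex are not labelled for these groups, and whether each genotype is 1 clone is not given in the sources used here.

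OTX2 is a homeodomain factor needed for the exit from naive pluripotency and for head development, and POU3F1 is a POU factor that pairs with OTX2 and OCT4 at enhancers of the early post-implantation epiblast. ZIC2 and ZIC5 are zinc finger factors of the epiblast and the neural plate. SOX3 belongs to the SOXB1 group with SOX1 and SOX2, whereas SOX4 and SOX11 are SOXC factors that are active in many progenitor and differentiating cells.

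Library totals ran from 2.165 to 15.945 M expected counts (M, mega), with 2.165 to 2.869 M in EpiSC, 3.607 to 8.955 M in ESC and 15.755 to 15.945 M in kEpiSC. WT and JunKO libraries, 12 in all, ran from 2.821 to 3.724 M. Jun, the deleted gene, stood at 5.01 to 14.62 TPM in the 6 JunKO libraries and at 40.39 to 240.39 TPM in the 6 WT libraries, so the groups did not overlap. Klf4, the transgene, stood at 0.52 to 1.94 TPM in EpiSC and at 36.26 to 102.61 TPM in kEpiSC, iEpiSC and kiEpiSC. The iEpiSC libraries held 36.26 and 36.61 TPM of it, and the labels do not say whether these cells carry the transgene. TPM, the transcript abundance that RSEM gives, is a level per transcript length, and it is the scale on which genes are set beside each other here. The p-values measure the spread between libraries, which the study calls biological replicates. In bulk RNA, fewer cells that express a gene and less RNA per cell cannot be told apart.

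On mm10 the genes lay at chr14:48657677-48673819 (Otx2, minus strand, 2 to 6 exons per transcript), chr4:124656807-124660655 (Pou3f1, plus strand, 1 exon), chr14:122475435-122479852 (Zic2, plus strand), chr14:122456795-122465677 (Zic5, minus strand), chrX:60891366-60893430 (Sox3, minus strand, 1 exon), chr13:28948919-28953713 (Sox4, minus strand, 1 exon) and chr12:27334264-27342574 (Sox11, minus strand, 1 exon). Zic2 and Zic5 are neighbours, 9757 bases apart, and point away from each other. Sox4 and Sox11 are close relatives that followed a like course through the libraries, so the stretch that holds their longest identical coding run is printed, with that run in capitals. It encodes part of the HMG box, the DNA-binding domain of SOX proteins, and is read from the coding strand (GENCODE M21 on mm10, minus strand, chr13:28952713-28952832 for Sox4 and chr12:27342130-27342249 for Sox11).
Sox4: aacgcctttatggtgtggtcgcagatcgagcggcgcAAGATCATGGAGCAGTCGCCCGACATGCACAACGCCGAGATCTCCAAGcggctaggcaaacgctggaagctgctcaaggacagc
Sox11: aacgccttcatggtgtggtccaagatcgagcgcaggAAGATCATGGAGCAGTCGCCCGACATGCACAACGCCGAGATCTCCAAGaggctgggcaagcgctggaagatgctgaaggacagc
The identical run was 48 bases long, and the 120 printed bases matched at 109 positions (90.8%). No stretch of 50 bases was shared between any of the 7 transcripts and a paralogue of its family. Of the 50-base stretches of Sox4, 54.1% overlapped Gm26735, a gene on the opposite strand, which was listed at 0 TPM in every library outside ESC and EpiSC and reached 6.73 TPM in EpiSC. How reads from this overlap were divided between the genes was not tested.

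The upstream sequence of 4 of the 7 genes was in the RefSeq promoter table (GRCm38.p6, the assembly of mm10, all minus strand). The bases before the start site that lie outside annotated exons are shown, because these genes cover a steep fall in the transition (Otx2), a stepwise fall (Zic5) and the pair that stayed high (Sox4 and Sox11). Otx2 has 4 starts in the table, and the stretch is that of the most upstream of them, chr14:48667645-48667894, which lies inside the span that GENCODE gives the gene. The others are chr14:122465678-122465908 (Zic5), chr13:28953714-28953949 (Sox4) and chr12:27342719-27342968 (Sox11).
Otx2: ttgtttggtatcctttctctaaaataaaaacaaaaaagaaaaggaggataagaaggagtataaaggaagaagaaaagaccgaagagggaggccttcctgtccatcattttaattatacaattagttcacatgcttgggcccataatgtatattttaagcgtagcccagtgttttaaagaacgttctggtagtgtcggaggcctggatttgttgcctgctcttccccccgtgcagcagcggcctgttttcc
Zic5: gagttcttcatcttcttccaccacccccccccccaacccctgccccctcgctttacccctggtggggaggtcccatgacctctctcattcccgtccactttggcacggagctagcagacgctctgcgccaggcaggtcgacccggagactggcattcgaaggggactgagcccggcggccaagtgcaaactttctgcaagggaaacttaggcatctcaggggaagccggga
Sox4: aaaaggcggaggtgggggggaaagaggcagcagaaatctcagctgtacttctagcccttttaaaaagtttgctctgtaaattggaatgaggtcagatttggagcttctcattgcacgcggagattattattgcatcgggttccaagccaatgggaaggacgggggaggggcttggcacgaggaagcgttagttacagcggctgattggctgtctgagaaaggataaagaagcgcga
Sox11: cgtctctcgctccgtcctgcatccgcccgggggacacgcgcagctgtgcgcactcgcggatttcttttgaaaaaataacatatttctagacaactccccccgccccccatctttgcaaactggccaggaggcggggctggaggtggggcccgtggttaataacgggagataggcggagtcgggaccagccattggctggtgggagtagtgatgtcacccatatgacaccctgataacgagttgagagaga
On either strand, the AP-1 letters TGANTCA, the octamer core TGCAAAT and the OTX letters TAATCC had 0 matches in these 4 stretches. A window at another Otx2 start, all of it exonic and not shown, held 1 match to the OTX letters. They occur in 6.75%, 3.56% and 6.25% of the 32851 promoters of the table. The Otx2 stretch held 42.0% G and C, the lowest share of the 4, and the window of Zic5 62.4%, the highest, against a median of 52.4% over all promoters.

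All 7 genes were lower in ESC than in EpiSC, with log2 fold changes from -1.40 (Zic2) to -4.18 (Pou3f1). edgeR's quasi-likelihood test with Benjamini-Hochberg adjustment over 13923 genes called 7 of 7 lower at an adjusted p under 0.05, where 23.8% of all genes tested were called lower. The median of the 7 differences was -2.48, against 0.02 for all genes. The value after each ± is the standard error of that difference in the same fit. ESC replicates 1 to 4 had a gap of 73.48 to 73.49 bases between transcript length and the effective length used for TPM. This gap was 176.32 bases in ESC replicate 5 and 189.09 to 192.14 bases in EpiSC. For ESC replicates 1 to 4, this trait of the libraries and the naive state cannot be told apart.

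Otx2 stood at 4.92, 12.54, 19.88, 9.32 and 9.34 TPM in the 5 ESC libraries and at 92.35, 62.11, 154.8 and 41.54 TPM in the 4 EpiSC libraries. The groups did not overlap, and the difference was -2.84 ± 0.38 (edgeR adjusted p = 4.69e-05). Pou3f1 stood at 1.24 to 3.06 TPM in ESC (median 1.74) and at 15.23, 40.98, 37.22 and 41.32 TPM in EpiSC, a difference of -4.18 ± 0.32 (edgeR adjusted p = 5.17e-07). EpiSC replicate 1 lay well below the other 3 EpiSC libraries for Pou3f1, and also for Sox4 (9.24 against 33.23, 38.88 and 37.68 TPM). The same library held 763.71 TPM of T (Brachyury), a mesendoderm gene, against 19.44 to 70.94 TPM in the others. It also held 39.37 TPM of Eif2s3y, a Y-linked gene, against 0.79 to 2.0 TPM in the others, and 0.80 TPM of Xist, against 328.05 to 417.06 TPM. Without this library the 7 genes were still called, and the differences for Pou3f1 and Sox4 were -4.35 and -2.70.

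The neighbouring ZIC genes were the least reduced in ESC. Zic2 stood at 29.77 to 45.57 TPM in ESC and at 67.37 to 110.13 TPM in EpiSC (-1.40 ± 0.22), and Zic5 at 13.92 to 30.37 TPM in ESC and 34.91 to 75.32 TPM in EpiSC (-1.53 ± 0.20). Neither gene overlapped between the groups, and Zic2 remained an abundant transcript in naive cells.

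Among the SOX genes, Sox4 stood at 6.20, 3.53, 6.82, 5.08 and 5.5 TPM in ESC, below every EpiSC library (-2.48 ± 0.31). Sox11 stood at 3.0 to 4.81 TPM in ESC and at 19.68, 26.92, 25.48 and 35.78 TPM in EpiSC (-2.84 ± 0.17). Sox3 was the exception in which the groups overlapped. ESC replicate 1 held 27.52 TPM of Sox3 and the other ESC libraries 5.34, 4.15, 1.79 and 3.25 TPM, whereas EpiSC held 23.39, 40.65, 40.66 and 41.03 TPM. The difference was -2.15 ± 0.65 with all libraries and -3.30 without ESC replicate 1, an X-linked result beside which Eif2s3y stood at 0 TPM in that library and at 49.96 to 87.97 TPM in the other 4 ESC libraries. Eif2s3y was thus high in most ESC libraries and low in most EpiSC libraries. The part of sex in the differences between ESC and EpiSC was not tested.

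Of the relatives of these genes fixed in a list of 13 family members, 7 were tested in this comparison. Sox2, a core pluripotency factor, was higher in ESC by 3.25 ± 0.44, Sox21 by 3.45 ± 0.50, Otx1 by 3.04 ± 0.74 and Pou3f3 by 4.26 ± 1.11. Sox12 was lower, at -1.38 ± 0.27. Of 25 other primed genes, 20 were called lower in ESC and 2 higher, with Fgf5, the ligand that marks the primed epiblast, at -12.83 ± 0.73 and Fgf8, another ligand of the epiblast and the primitive streak, at -8.22 ± 0.75. Of 16 naive genes, 15 were called higher. The ESC libraries summed to 7870 to 11000 TPM over the naive list and the EpiSC libraries to 226 to 493 TPM, so the marker levels matched both labels.

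**Figure D1:**
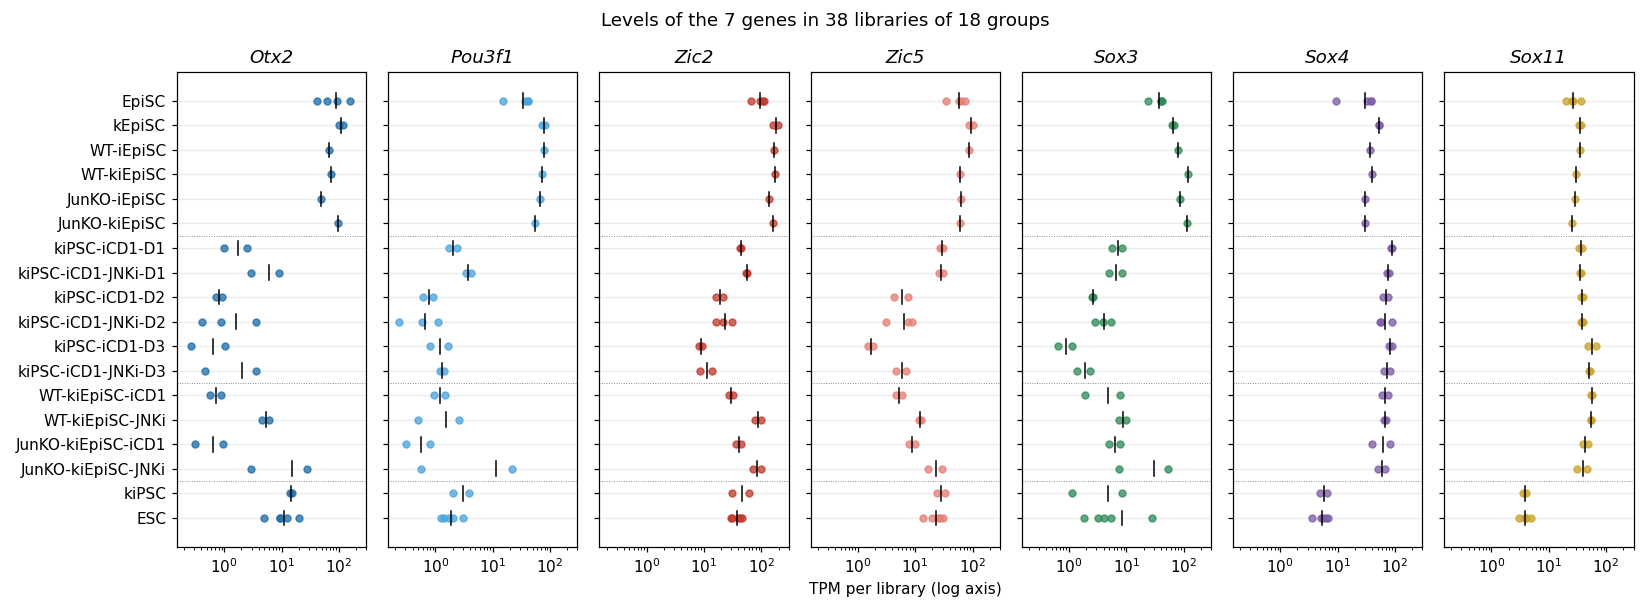
TPM of each gene (log axis) in every library, by group; points are libraries and black bars group means, with the primed groups on top, the PNT days, the day 3 WT and JunKO groups, and the naive groups at the bottom. Otx2 spans 0.26 to 154.8 TPM, and Sox4 and Sox11 are lowest in the ESC and kiPSC libraries.

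EpiSC with and without the Klf4 transgene had no called difference in the 7 genes. In kEpiSC the group means were above those of EpiSC, with 99.41 and 120.02 TPM of Otx2, 82.90 and 71.27 TPM of Pou3f1, and 196.79 and 159.25 TPM of Zic2. Against EpiSC, 0 of 7 genes were called (1.26% of all genes), although 5 of 7 had an unadjusted p under 0.05 and DESeq2 called 2. The differences ran from 0.35 to 1.27, with Pou3f1 at 1.27 ± 0.33 (edgeR adjusted p = 0.0818) and Zic2 at 0.99 ± 0.26 (edgeR adjusted p = 0.0854). In WT EpiSC-like cells, a fit over all 38 libraries called Zic2 alone (2.08% of all genes). It was higher than in EpiSC by 0.91 ± 0.24 (165.98 and 173.12 against 67.37 to 110.13 TPM), and Sox3 reached 1.49 ± 0.61 (edgeR adjusted p = 0.25). In a fit of these groups alone Sox3 was called (edgeR adjusted p = 0.0428) and Zic2 was not (edgeR adjusted p = 0.386). The Zic2 call was lost when EpiSC replicate 2, 3 or 4 or either WT library was left out (edgeR adjusted p from 0.065 to 0.693).

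The naive cells at the end of the course were set beside ESC. Against ESC, edgeR and DESeq2 each called 0 of 7 genes in kiPSC (0.144% of all genes by edgeR), and 0 of 7 had an unadjusted p under 0.05. Otx2 stood at 13.90 and 15.44 TPM in kiPSC, within the ESC range. Zic2 stood at 60.15 and 31.01 TPM, of which the first lay above the ESC libraries. The intervals of the 7 differences reached from -2.73 to 1.53 on the log2 scale, and they were widest for Sox3, whose kiPSC libraries held 1.15 and 8.52 TPM.

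During the first day of PNT the 7 genes split. Otx2 fell from 99.41 and 120.02 TPM in kEpiSC to 2.5 and 0.99 TPM on day 1, and Pou3f1 from 82.90 and 71.27 to 2.35 and 1.76 TPM. Zic2, Zic5 and Sox3 fell less steeply, Sox11 did not pass the test, and Sox4 rose. By edgeR's test over 14892 genes, 5 of 7 were called lower on day 1, against 23.1% of all genes, and 1 higher, against 23.2%.

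The differences on day 1 were -6.39 ± 0.56 for Otx2 (edgeR adjusted p = 2.88e-07) and -5.35 ± 0.34 for Pou3f1 (edgeR adjusted p = 9.58e-09). On day 1 Otx2 lay below all ESC libraries and Pou3f1 within their range. Otx2 rested on 10 expected counts in each day 1 library, after 1420 and 1694 in kEpiSC.

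Zic2 went from 196.79 and 159.25 TPM in kEpiSC to 42.90 and 45.03 TPM on day 1, 16.13 and 21.26 TPM on day 2, and 8.23 and 9.20 TPM on day 3. Zic5 went from 101.85 and 86.85 TPM to 27.57 and 30.93, then 4.26 and 7.47, then 1.86 and 1.49 TPM. The libraries of successive days did not overlap in either gene, and both genes were called lower at every step. The steps were -2.16 ± 0.27, -1.16 ± 0.28 and -1.27 ± 0.33 for Zic2, and -1.87 ± 0.20, -2.05 ± 0.23 and -1.51 ± 0.30 for Zic5. On days 2 and 3 these were 2 of the 7 genes called lower, against 9.38% of all genes from day 1 to day 2 and 6.10% from day 2 to day 3. The Zic2 step from day 2 to day 3 missed the threshold when any of its 4 libraries was left out (edgeR adjusted p from 0.0583 to 0.135), and that from day 1 to day 2 without day 1 replicate 2 (0.0657) or day 2 replicate 1 (0.108). The processed transcript 2610035F20Rik, which starts 235 bases from Zic2 on the other strand, followed a like course from 15.63 and 10.76 TPM in kEpiSC to 0.43 and 1.51 TPM on day 3.

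Sox3 stood at 68.90 and 63.02 TPM in kEpiSC, 5.59 and 8.5 TPM on day 1, 2.55 and 2.63 TPM on day 2, and 1.13 and 0.64 TPM on day 3. Its first step was called (-3.34 ± 0.49). The next step, -1.40 ± 0.59 (edgeR adjusted p = 0.121), was not, nor was that of Pou3f1 from day 1 to day 2, -1.39 ± 0.47 (edgeR adjusted p = 0.0567). In a fit of these 2 days alone both steps were called (edgeR adjusted p = 0.00871 and 0.0255).

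Neither gene of the SOXC pair was called lower at any step up to day 3. Sox4 stood at 51.87 and 52.19 TPM in kEpiSC and at 90.14 and 86.00, 76.66 and 62.61, and 87.39 and 77.27 TPM on days 1, 2 and 3, above kEpiSC in all 6 libraries. It rose by 0.63 ± 0.19 on day 1 (edgeR adjusted p = 0.0125) and stood 0.44 ± 0.19 above kEpiSC on day 3 (edgeR adjusted p = 0.0683). The day 1 call was lost without kEpiSC replicate 1, kEpiSC replicate 2 or day 1 replicate 1 (edgeR adjusted p from 0.0644 to 0.0661). Sox11 stood at 33.23 and 36.27 TPM in kEpiSC and 34.12 and 37.81 TPM on day 1 (-0.08 ± 0.12). From day 2 to day 3 it rose by 0.46 ± 0.13, from 36.02 and 39.41 to 47.99 and 67.50 TPM (1 of 7 called higher, against 6.13% of all genes). That call was lost without day 2 replicate 1, day 2 replicate 2 or day 3 replicate 2 (edgeR adjusted p from 0.0754 to 0.34), and without day 3 replicate 2 the difference was 0.23.

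By day 3, 5 of 7 genes were called lower than in kEpiSC, against 25.4% of all genes, and Sox11 was called higher (0.49 ± 0.12), against 25.2%. The falls were -8.20 ± 0.70 for Otx2, -6.28 ± 0.38 for Pou3f1, -4.60 ± 0.32 for Zic2, -5.44 ± 0.27 for Zic5 and -6.36 ± 0.66 for Sox3. Otx2 held 3 and 1 counts in the day 3 libraries, and its ratio of counts between kEpiSC and day 3 was 302 with an exact 95% interval of 118 to 1110, which covers counting error only. Without day 3 replicate 2 the Sox11 difference was 0.26 (edgeR adjusted p = 0.106).

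**Figure D2:**
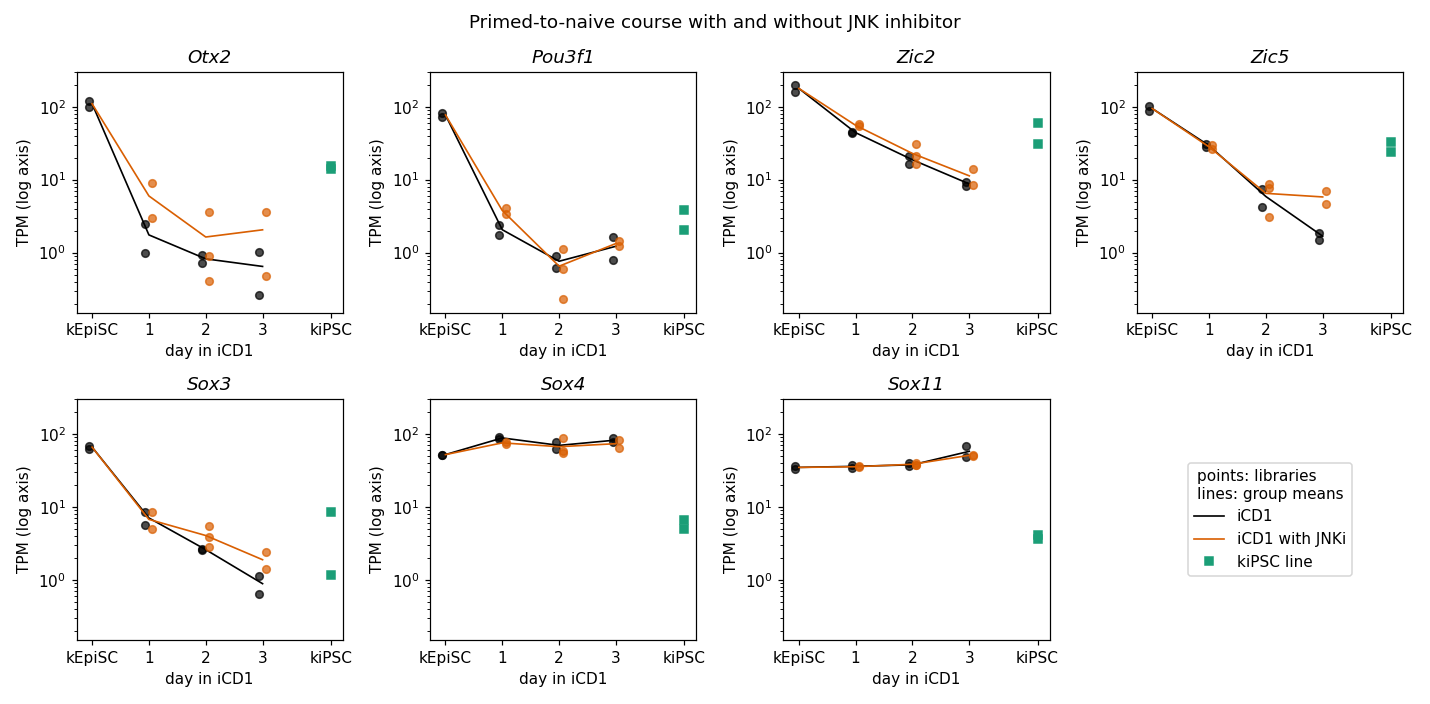
TPM (log axis) of each gene in kEpiSC, on days 1 to 3 in iCD1 without (black) and with JNKi (orange), and in kiPSC (squares); points are libraries and lines join group means. Zic2 and Zic5 fall below their kiPSC level by day 3, while Sox4 and Sox11 stay at 33.23 TPM or more until the kiPSC stage.

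Of the 7 genes, 5 were called higher in kiPSC than on day 3, against 29.3% of all genes, and 2 lower, against 28.6%. Zic5 stood at 1.86 and 1.49 TPM on day 3 and at 32.79 and 24.27 TPM in kiPSC (3.44 ± 0.27). Zic2 stood at 8.23 and 9.20 against 60.15 and 31.01 TPM (2.5 ± 0.32), and Otx2 at 1.03 and 0.26 against 13.90 and 15.44 TPM (5.28 ± 0.78). These 3 genes were thus called lower on day 3 than in both kEpiSC and kiPSC. The paper calls the PNT inefficient, and RNA was measured in bulk. Whether the same cells lost and regained these transcripts was not tested. Pou3f1 (1.42 ± 0.44) and Sox3 (2.35 ± 0.78) were also called higher, but without kiPSC replicate 2 the values were 0.97 and 0.44 (edgeR adjusted p = 0.0966 and 0.618). Both calls were also lost without day 3 replicate 1 (0.163 and 0.0585), and that of Sox3 without day 3 replicate 2 (0.0892).

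Sox4 was lower by 3.76 ± 0.23 and Sox11 by 3.80 ± 0.15 on the log2 scale in kiPSC than on day 3. The 2 kiPSC libraries held 4.91 and 6.53 TPM of Sox4 and 3.57 and 4.09 TPM of Sox11, within the ESC range. Against kEpiSC, all 7 genes were called lower in kiPSC, with 29.2% of all genes called lower, from -2.0 ± 0.20 (Zic5) to -4.86 ± 0.33 (Pou3f1).

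Other primed genes were divided as well. Of the 25 listed, 13 were called lower and 6 higher on day 1 than in kEpiSC, with Cer1 at -7.34 ± 0.63, Foxd3 at -6.88 ± 0.62 and Fgf5 at -6.13 ± 0.62, and T at 5.19 ± 0.19. On day 3, 14 were lower and 6 higher. The mesendoderm list summed to 111 to 151 TPM in kEpiSC, 2640 to 2800 TPM on day 1 and 494 to 504 TPM on day 3, and none of its 14 genes was at 0 in both libraries on either day. T alone held 1983.7 to 2110.28 TPM on day 1 and 156.67 to 180.4 TPM on day 3. Against kEpiSC, 9 of the 14 were called higher and 3 lower on day 1, and 5 higher and 5 lower on day 3. On day 3, 7 of 16 naive genes were called higher than in kEpiSC and 4 lower (median 1.74), with Tbx3 at 6.90 ± 1.77 and Nanog at -4.42 ± 0.60. The list summed to 163 to 195 TPM in kEpiSC, 159 to 193 TPM on day 3 and 7660 to 9240 TPM in kiPSC, and 15 of its 16 genes were called higher in kiPSC than on day 3. Among the relatives, Zic1 (7.30 ± 0.91) and Pou3f3 (6.45 ± 0.77) rose by day 3. Of 12 neural genes tested, 3 were called higher and 5 lower on day 3, with Pax3 at 10.91 ± 0.83 and Pax6 at 5.92 ± 0.73, and the list summed to 55.5 to 88.0 TPM against 138 to 160 TPM in kEpiSC. The part of other cell types in the course of the 7 genes was not tested.

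JNKi was tested within each PNT day. By edgeR, 0 of 7 genes were called on days 1, 2 and 3, where 0.0%, 0.00672% and 0.0% of all genes were called and 271, 430 and 498 of 14892 had an unadjusted p under 0.05. Of the 7 genes, 2 had an unadjusted p under 0.05 on day 1 and 0 on days 2 and 3, and DESeq2 called 0 of the 7 on each day, with 0, 1 and 3 calls in the whole table. For the change of the JNKi effect from day 1 to day 3, edgeR called 0 of 7 (0.0% of all genes), with 339 genes of the table and 0 of the 7 at an unadjusted p under 0.05, and DESeq2 called 1 gene, none of the 7.

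Otx2 had the largest fitted difference of the 7 genes on each day. On day 1 it stood at 2.5 and 0.99 TPM without JNKi and at 8.97 and 2.97 TPM with it, on day 2 at 0.72 and 0.92 against 3.60, 0.41 and 0.89 TPM, and on day 3 at 1.03 and 0.26 against 0.47 and 3.63 TPM. The groups were apart on day 1 and overlapped on days 2 and 3. The day 1 difference was 2.13 ± 0.63 with an unadjusted p of 0.00389 and an edgeR adjusted p of 1.

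Pou3f1 was likewise apart on day 1, at 2.35 and 1.76 against 4.12 and 3.42 TPM (0.86 ± 0.36, edgeR adjusted p of 1). On day 3, Zic5 stood at 1.86 and 1.49 TPM without JNKi and at 4.64 and 6.93 TPM with it, but the gap was smaller in counts scaled to the library, at 4.58 and 3.51 against 5.47 and 8.12 CPM (counts relative to the TMM-scaled library total). The effective length used for its TPM was 4593 to 4604 bases without JNKi and 2169 to 2211 bases with it, and is weighted over the 2 annotated transcripts of the gene. The count-based difference was 0.68 ± 0.34 (edgeR adjusted p of 1).

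Sox4 and Sox11 had narrow intervals. Over the 3 days their JNKi differences ran from -0.23 to -0.07 and from -0.14 to 0.02, with standard errors of at most 0.19, and the day 1 interval of Sox11 was -0.30 to 0.24.

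**Figure D3:**
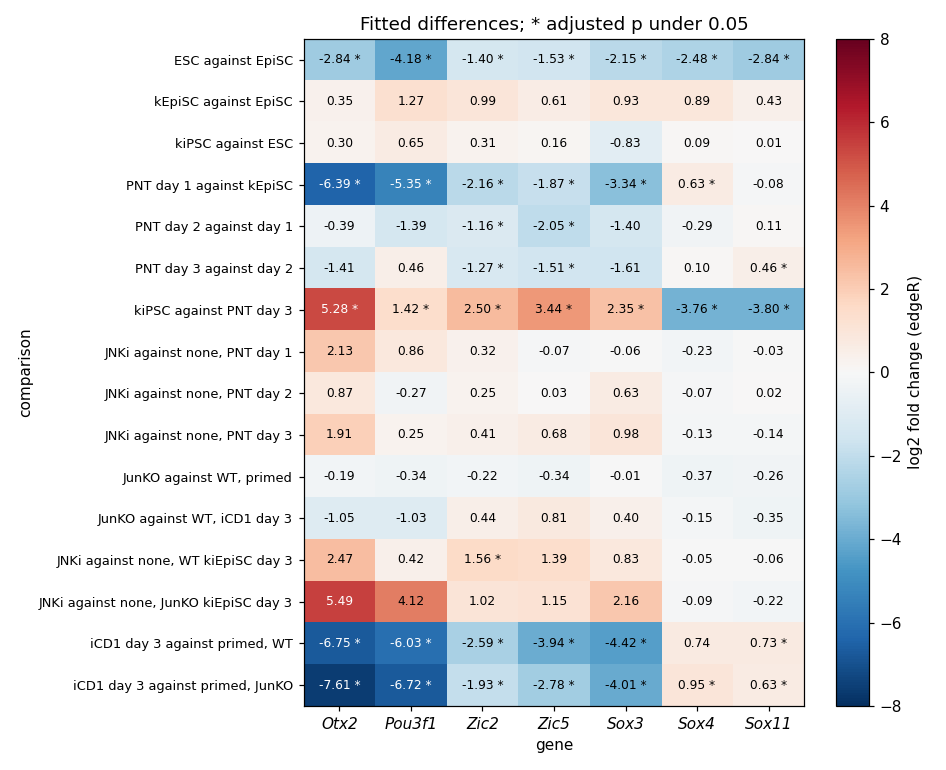
Fitted log2 fold change of each gene (columns) in 16 comparisons (rows), blue for lower and red for higher in the first-named group; an asterisk marks an edgeR adjusted p under 0.05. Otx2, Pou3f1, Zic2, Zic5 and Sox3 are marked as lower in ESC, on PNT day 1 and on day 3 of both genotypes, and no value is marked in the JNKi comparisons of the PNT course.

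WT and JunKO EpiSC-like cells had no called difference in the 7 genes. The genotypes also differed in the Y-linked Eif2s3y, at 6.34 to 28.78 TPM in the 6 WT libraries and 45.41 to 90.15 TPM in the 6 JunKO libraries, and its part in the comparisons of genotypes was not tested. Otx2 stood at 68.18 and 71.49 TPM in the 2 WT libraries and at 49.31 and 97.61 TPM in the 2 JunKO libraries, and Sox3 at 78.88 and 120.03 against 87.14 and 112.86 TPM. edgeR called 0 of 7 (0.357% of all genes), with 0 of 7 at an unadjusted p under 0.05, and DESeq2 called 0 of 7. The differences ran from -0.37 to -0.01, all below 0, and their intervals reached from -1.80 to 1.19. Each genotype held 1 iEpiSC and 1 kiEpiSC library, which stood for its primed cells, and the fit had a term for iEpiSC against kiEpiSC.

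After 3 days in iCD1 the same split was seen in both genotypes. In WT cells 5 of 7 genes were called lower than in EpiSC-like cells (16.1% of all genes) and Sox11 higher (16.1%). In JunKO cells 5 of 7 were called lower (13.3%) and 2 higher (15.8%). Otx2 held 2 counts in each WT library on day 3 and 1 in each JunKO library, after 202 and 241 and after 134 and 272 counts in EpiSC-like cells. The ratio of counts between EpiSC-like cells and day 3 was 111 in WT (exact 95% interval 43.2 to 411) and 229 in JunKO (63.0 to 1900). The differences of Pou3f1 were -6.03 ± 1.02 in WT and -6.72 ± 1.13 in JunKO, and those of Sox3 were -4.42 ± 0.74 and -4.01 ± 0.70.

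Zic2 and Zic5 were also called lower in both genotypes. In WT cells Zic2 went from 165.98 and 173.12 to 32.64 and 27.66 TPM (-2.59 ± 0.19) and Zic5 from 87.96 and 59.34 to 4.65 and 5.91 TPM (-3.94 ± 0.26). In JunKO cells Zic2 went from 134.57 and 160.78 to 44.23 and 36.23 TPM (-1.93 ± 0.19) and Zic5 from 64.04 and 61.39 to 7.72 and 9.82 TPM (-2.78 ± 0.23). The day 3 libraries of JunKO lay above those of WT in both genes. The direct comparison of JunKO with WT on day 3 gave 0.81 ± 0.29 for Zic5 (edgeR adjusted p = 0.227), and the difference between the falls was 1.15 ± 0.35 (edgeR adjusted p = 0.627). In the direct comparison edgeR called 0 of 7 genes (1.7% of all genes), with 1 of 7 at an unadjusted p under 0.05. In the difference between the falls it called 0 of 7 (0.0159%), with 2 of 7 at an unadjusted p under 0.05, and DESeq2 called 0 of 7 in both. Sox2, a relative of the SOX genes, was called higher in JunKO on day 3, by 1.11 ± 0.13, as were 7 of 16 naive genes.

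Sox11 rose by 0.73 ± 0.16 in WT and 0.63 ± 0.16 in JunKO. Sox4 stood 0.74 ± 0.29 above EpiSC-like cells in WT (edgeR adjusted p = 0.0719) and 0.95 ± 0.29 in JunKO (edgeR adjusted p = 0.0315), with 77.07 and 59.04 TPM in WT and 81.30 and 40.40 TPM in JunKO. DESeq2 called the WT difference too (DESeq2 adjusted p = 0.03), and limma did not call that in JunKO (limma adjusted p = 0.0876). Leaving out JunKO iEpiSC, JunKO kiEpiSC or JunKO iCD1 replicate 1 ended both JunKO calls, and without the last of these the Sox4 difference was 0.38. Leaving out either WT EpiSC-like library ended the WT call for Sox11 (edgeR adjusted p = 0.0863 and 0.11).

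In WT cells the addition of JNKi for these 3 days was compared with iCD1 alone. Zic2 stood at 32.64 and 27.66 TPM in iCD1 and at 97.48 and 77.62 TPM with JNKi, a difference of 1.56 ± 0.19 (edgeR adjusted p = 0.0312), and it was the 1 gene of 7 called (0.484% of all genes). The groups did not overlap, but the call was lost whichever of the 4 libraries was left out (edgeR adjusted p from 0.0838 to 0.309), and limma on log2(TPM + 1) gave an adjusted p of 0.0629. Its neighbour Zic5 stood at 4.65 and 5.91 against 11.58 and 12.84 TPM (1.39 ± 0.27, edgeR adjusted p = 0.0643). Otx2 stood at 0.57 and 0.88 against 6.13 and 4.56 TPM, with 4 counts against 26 in all. The ratio of counts was 5.75 (exact 95% interval 2.00 to 22.7) and the fitted difference 2.47 ± 1.38 (edgeR adjusted p = 0.458).

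In JunKO cells the JNKi libraries differed from each other. Otx2 stood at 0.97 and 0.31 TPM in iCD1 and at 2.95 and 27.86 TPM with JNKi, Pou3f1 at 0.31 and 0.81 against 0.55 and 22.05 TPM, and Sox3 at 7.78 and 4.95 against 7.41 and 54.02 TPM. The second JNKi library of JunKO was far above the first in these 3 genes, and for Pou3f1 and Sox3 the first lay within the iCD1 levels of the same genotype. Among genes looked at after this was seen, the same library held 26.63 TPM of Fgf5 (0.65 in the first), 175.78 TPM of Dnmt3b (53.37) and 57.90 TPM of Sox1 (3.91), while T was lower (399.40 against 1035.63 TPM) and Foxd3 (10.73 against 10.26 TPM) and Lef1 (31.25 against 32.72 TPM) were close. Summed over whole lists, the second library held 2150 TPM of primed genes against 2260 in the first, 1440 against 1860 TPM of naive genes, 244 against 106 TPM of neural genes and 643 against 1170 TPM of mesendoderm genes. T is in both the primed and the mesendoderm list, and gave 399.40 TPM of each sum in the second library and 1035.63 TPM in the first. Apart from T, the primed genes together held more TPM in the second library than in the first, and so did the mesendoderm genes. Zic2, at 70.43 and 100.07 TPM, and Sox4, at 68.40 and 51.36 TPM, were closer between the libraries. The part of the second library in the result was examined by leaving it out, and that of the lists was not tested.

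edgeR called 0 of 7 genes for JNKi in JunKO cells (0.0476% of all genes), although 5 of 7 had an unadjusted p under 0.05 and DESeq2 called 3. The differences were 5.49 ± 1.23 for Otx2, 4.12 ± 1.31 for Pou3f1, 2.16 ± 0.73 for Sox3, 1.15 ± 0.24 for Zic5 and 1.02 ± 0.19 for Zic2, with edgeR adjusted p from 0.104 to 0.263. Without the second JNKi library the values were 3.06, -0.10, 0.20, 0.70 and 0.82 with 0 of 7 called, and without the first they were 6.36, 5.08, 2.97, 1.49 and 1.19 with 5 of 7 called, in both cases with a lone library assumed to vary like the other groups. The same library set the comparison of JunKO with WT under JNKi, where edgeR called 0 of 7 genes (0.92% of all genes), with 5 of 7 at an unadjusted p under 0.05, and DESeq2 called 0. There the differences were 1.98 ± 0.78 (Otx2), 2.66 ± 1.07 (Pou3f1) and 1.74 ± 0.70 (Sox3), and without it -0.46, -1.56 and -0.23. The JNKi effect did not differ between genotypes by a called amount (0 of 7 by edgeR and by DESeq2, 0.0% of all genes by edgeR, 0 of 7 at an unadjusted p under 0.05), with Zic2 at -0.54 ± 0.27 (edgeR adjusted p = 0.832) and Pou3f1 at 3.69 ± 2.28 (edgeR adjusted p = 0.841).

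**Figure D4:**
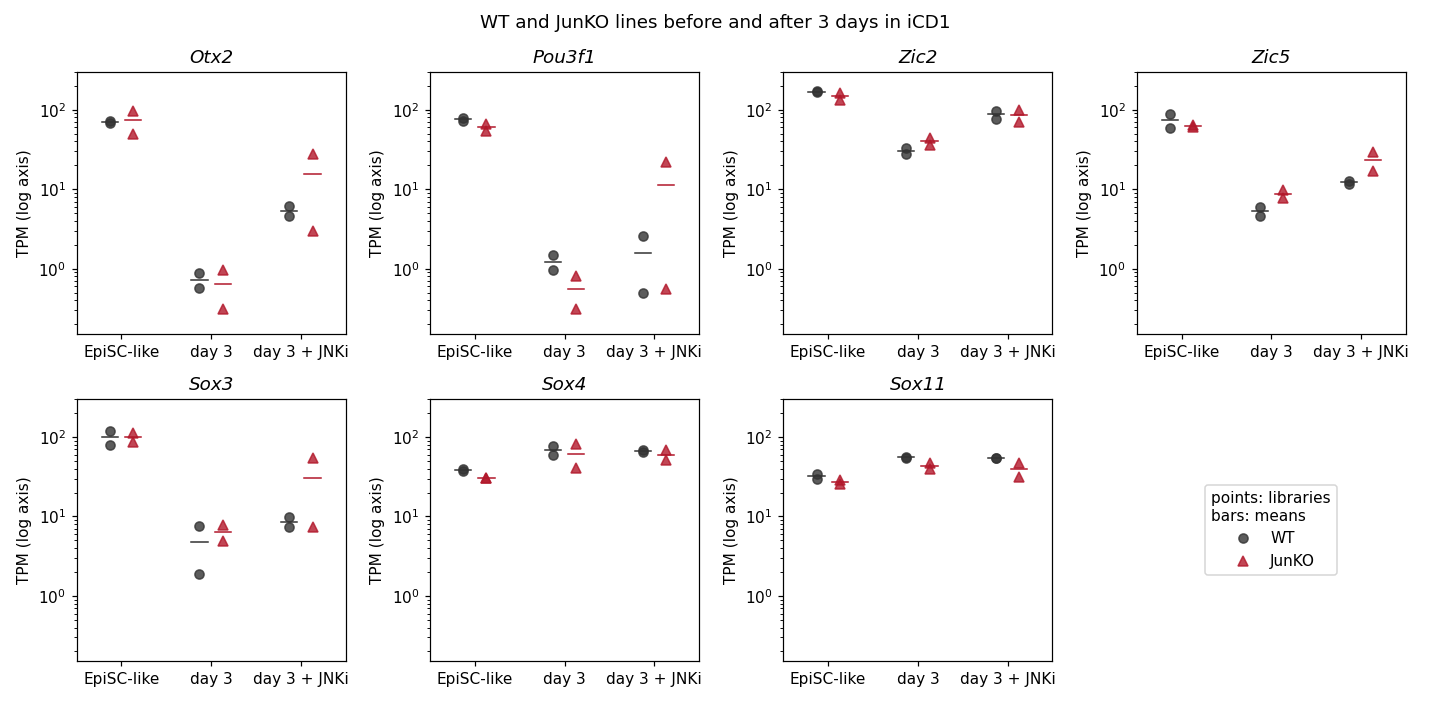
TPM (log axis) of each gene in WT (circles) and JunKO cells (triangles), as EpiSC-like cells and after 3 days in iCD1 without and with JNKi; points are libraries and short bars means. The JunKO library with JNKi at 27.86 TPM of Otx2 stands apart from its partner at 2.95 TPM, and the WT libraries with JNKi hold more Zic2 than those without.

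In the order of group means over the 18 groups, Otx2, Zic2 and Zic5 were highest in kEpiSC, at 109.7, 178.0 and 94.35 TPM. Pou3f1 was highest in WT iEpiSC (77.92 TPM, a single library within the kEpiSC range) and Sox3 in WT kiEpiSC (120.0 TPM). The 6 primed groups took the first 6 places for each of these 5 genes. The lowest means were 0.64 TPM for Otx2 and 0.56 TPM for Pou3f1, both in JunKO day 3 iCD1 libraries, and 8.715, 1.675 and 0.885 TPM for Zic2, Zic5 and Sox3, all on PNT day 3. The lowest group overlapped the next for Otx2 (PNT day 3, 0.645 TPM) and for Pou3f1 (PNT day 2 with JNKi, 0.65 TPM). The lowest Otx2 mean rested on 2 counts in all. Of the 17 neighbouring pairs in each order, 12 overlapped in their libraries for Otx2, 14 for Pou3f1, 11 for Zic2, 10 for Zic5 and 9 for Sox3. The iEpiSC and kiEpiSC groups hold 1 library each, and neighbours of this size overlap only at equal values, so these counts partly reflect group size. For Sox4 and Sox11 the order was different. The 10 groups in iCD1 stood above all primed groups for Sox4, led by PNT day 1 at 88.07 TPM, and the 2 naive groups came last in both genes, at 5.72 and 5.426 TPM of Sox4 and 3.884 and 3.83 TPM of Sox11, with no overlap with the group above.

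Over the same 18 group means, on the log2(TPM + 1) scale, the members fell into 2 sets. Pearson's r between Otx2, Pou3f1, Zic2, Zic5 and Sox3 ran from 0.84 to 0.94, r between Sox4 and Sox11 was 0.95, and r between the sets ran from -0.43 to -0.02. Groups share cell lines and media, so these values describe the pattern and carry no p. Among the 13130 genes that reached 5 TPM in a group, the one most like Zic2 was Sox3 (r = 0.936).

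The other patterns most like each gene were those of Eras, Slc27a2 and Ell2 for Otx2 (r from 0.957 to 0.963), Pim2, Calcr and Mmp25 for Pou3f1 (0.981 to 0.983), and Utf1 and Gpr27, after Sox3, for Zic2 (0.929 to 0.932). They were Mtmr14, Nap1l2 and Card19 for Zic5 (0.947 to 0.968) and Snrpn, Mars and Kctd3 for Sox3 (0.963 to 0.982). For the SOXC pair they were Zcrb1, Phldb1 and Ttyh3 for Sox4 (0.975 to 0.978) and Zfp334, Speg and Car14 for Sox11 (0.983 to 0.985). With a pseudocount of 0.1 TPM in place of 1, 14 of these 21 stayed among the 3 closest. The nearest gene to Zic2 on the chromosome, 2610035F20Rik, had r = 0.93 with Zic2 and 0.88 with Zic5, on at most 15.63 TPM.

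**Figure D5:**
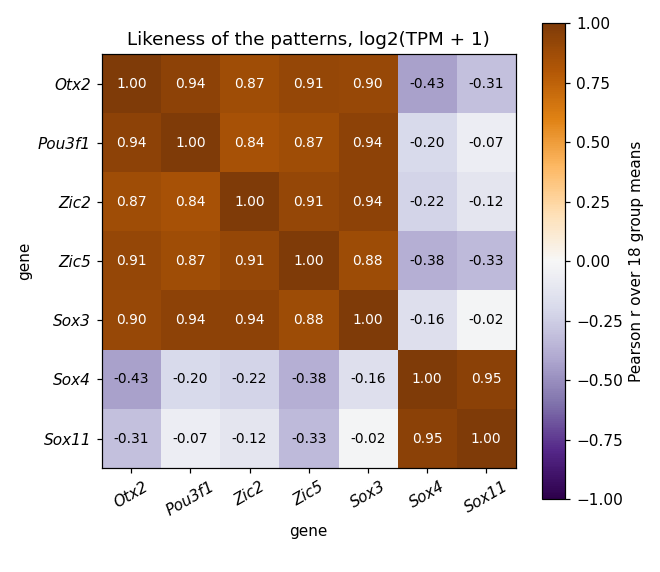
Pearson's r between the 7 genes over 18 group means of log2(TPM + 1); rows and columns are genes and each cell prints its r. Otx2, Pou3f1, Zic2, Zic5 and Sox3 form a block of 0.84 to 0.94, Sox4 and Sox11 share 0.95, and values between the blocks lie below 0.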

How the data were processed

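RNA libraries of the 38 samples were sequenced and processed by the authors with bcl2fastq, Bowtie2 and RSEM on mm10, with versions not given in the sources used here. The authors deposited, per gene and library, expected counts (estimated counts that need not be whole) and TPM, scaled by an effective transcript length. The 7 genes and all gene lists were chosen with earlier results of these data known. Expected counts were rounded and tested with edgeR 4.0.16 (TMM, filterByExpr with a minimum count of 10, quasi-likelihood F test, Benjamini-Hochberg over all genes, threshold 0.05) in R 4.3.3, in 4 fits of 13, 17, 12 and 38 libraries, for 23 comparisons. Standard errors are the log2 fold change divided by the root of F. Alternatives were RLE scaling, DESeq2 1.42.0, other filters, limma 3.58.1 on log2(TPM + 1), other library sets, each library left out, and the replicate number as a block. Named were the 7 genes, Jun, Klf4, any family gene, up to 4 called genes per list and comparison with the largest change, and per gene the 3 closest patterns. Eif2s3y, Xist, neighbouring genes, Dnmt3b and Lef1 were added after their values were seen. Library depth was 2.165 to 15.945 M expected counts, and intervals on few counts cover counting error only. ESC replicates 1 to 4 had a gap of 73.48 to 73.49 bases between transcript length and effective length, against 133.05 to 192.14 in the other libraries.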

Additional observations from a re-analysis of the deposited data

Results flagged for a closer look

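Of 14 gene and group combinations with 4 or 5 libraries, 3 held a library far from the others of its group by Dixon's ratio, where chance flags about 1 in 20. Pou3f1 in EpiSC replicate 1 stood at 15.23 TPM, against 37.22 to 41.32 TPM in the other 3 libraries (ratio 0.843). Sox3 in the same library stood at 23.39 TPM, against 40.65 to 41.03 TPM (ratio 0.978). Sox3 in ESC replicate 1 stood at 27.52 TPM, against 1.79 to 5.34 TPM in the other 4 (ratio 0.862). The cause was not tested.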

How the results depend on the processing

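Of 53 called values of the 7 genes, 41 stayed past the threshold under every alternative that gave a value, 12 lost it under at least 1, and 0 changed direction. For kEpiSC against EpiSC, DESeq2 called 2 of 7 genes and a fit of all 38 libraries 1. From day 1 to day 2, 4 were called without a filter and 4 in a fit of the 2 groups alone. Without a filter, 1 was called for JNKi on day 1, 1 for JunKO against WT in iCD1, 4 for JunKO against WT under JNKi, 3 and 5 for JNKi in WT and JunKO, 1 for the difference of the JNKi effects and 1 for the difference of the falls. For JNKi in WT, DESeq2 called 2, limma 0 and a fit of the 2 groups 2, and for JNKi in JunKO DESeq2 called 3. For WT EpiSC-like cells against EpiSC, limma called 0, and a fit of the groups compared alone called Sox3 and not Zic2. The day 1 value of Sox11 was 0.05 by limma. The cause was not tested.

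Leaving out single libraries gave 0 to 1 calls for kEpiSC against EpiSC, 1 to 2 for each later step of the PNT, 0 to 4 for JunKO against WT under JNKi, 0 to 0 for JNKi in WT, 0 to 5 for JNKi in JunKO, 0 to 1 for the difference of the JNKi effects and 0 to 1 for WT EpiSC-like cells against EpiSC. For JunKO against WT under JNKi the values ran from -0.46 to 2.85 (Otx2), -1.56 to 4.31 (Pou3f1) and -0.23 to 2.55 (Sox3). Pou3f1 ran from -0.10 to 5.08 for JNKi in JunKO and from -0.53 to 5.35 for the difference of the JNKi effects.

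The labels do not say that same-numbered libraries were made together, and no comparison had 3 or more numbers that each deviated together (r from -0.07 to 0.36 in all, and from 0.19 to 0.36 for JNKi in the PNT), so the numbers were not taken as pairs. With the replicate number as a block, 1 of 7 genes was called for kEpiSC against EpiSC (Pou3f1), 2 for JNKi in WT (Zic2 and Zic5), 3 for JNKi in JunKO (Otx2, Pou3f1 and Zic2) and 0 for WT EpiSC-like cells against EpiSC. It also called Pou3f1 lower from day 1 to day 2, and Sox4 higher on PNT day 3 than in kEpiSC and in WT iCD1 day 3 than in primed WT cells. Both of these Sox4 differences were called as well without a filter and in a fit of the groups compared alone. Limma also called that on PNT day 3, and DESeq2 that in WT.

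Over all genes, kEpiSC against EpiSC had 176 calls by edgeR, 599 by DESeq2, 1102 in the fit of all 38 libraries and 37 to 333 with 1 library left out. kiPSC against ESC had 20, with 4 to 89 under alternatives. JNKi in WT had 61 calls, with 25 by limma, 792 without a filter and 0 to 2 when 1 library was left out. JNKi in JunKO had 6, with 0 in a fit of the 2 groups, 717 without a filter and 0 to 546 with 1 library left out. JunKO against WT had 45 calls in EpiSC-like cells (9 to 716, and 0 to 1 with 1 library left out), 215 in iCD1 (22 to 822, and 5 to 174) and 116 under JNKi (0 to 1138, and 0 to 911). From day 1 to day 2 and from day 2 to day 3 the fit of all 38 libraries made 1156 and 585 calls in place of 2454 and 1821. Few counts limit Otx2, Pou3f1 and Sox3 on day 3.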
